A study of Mus musculus with 5 samples.

Results

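The genes described here are 34 lysosomal genes, namely 13 cathepsins (Ctsa, Ctsb, Ctsc, Ctsd, Ctse, Ctsf, Ctsh, Ctsk, Ctsl, Ctso, Ctss, Ctsw and Ctsz), 3 genes of other proteases and granulin (Lgmn, Tpp1 and Grn), 7 glycosidases (Hexa, Gaa, Gla, Glb1, Gusb, Man2b1 and Neu1), 6 genes of lipid breakdown and export (Npc1, Npc2, Lipa, Psap, Asah1 and Smpd1) and 5 membrane proteins (Lamp1, Lamp2, Cd63, Scarb2 and Laptm5). They were taken by name from a table of 19938 mouse genes. Each of the 34 had 1 probe set that carried its symbol alone. The arrays were hybridised with RNA from pancreatic leukocytes, sorted by CD45, of 5 wild-type NOD females aged 10 weeks, 1 array per mouse. NOD is an inbred strain in which autoimmune diabetes arises without treatment. Before the organ was taken, each mouse had been given 1 MRI value, the transverse relaxation time T2, and the study asked which transcripts varied with it. The T2 values of mice 1 to 5 were 35.3, 35.24, 32.77, 30.02 and 28.98 ms. There was no control group and no second genotype. T2 and the order of the mouse numbers run together, so an effect of handling order cannot be told apart from one of T2. The sources used here do not say which T2 values go with more infiltration.

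Lysosomes are acidic compartments in which cathepsins cut proteins, glycosidases strip sugars, and a set of lipases and lipid carriers break down and export lipids. Most soluble hydrolases reach the compartment through a mannose 6-phosphate tag, while heavily glycosylated membrane proteins such as LAMP1 and LAMP2 line its inner face. In leukocytes the same enzymes trim antigens and the invariant chain for MHC class II, and phagocytes such as macrophages are rich in them. Many lysosomal genes carry E-box letters near their start, to which the factor TFEB and its relatives bind.

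Those letters were looked for in the promoters of the 34 genes, to show what the members share in sequence. The RefSeq promoter table (GRCm38.p6, 250 bases before to 50 after each start) held 31 windows for 28 of the genes. Ctsb, Ctse, Ctsh, Ctsw, Npc1 and Asah1 had no entry. The letters CACGTG, which read the same on both strands, lay in 9 of the 31 windows (29.0%), those of Ctsa, Ctsd, Ctsf, Ctsl, Gaa, Gla, Glb1, Lamp1 and Lgmn. They lay in 7.15% of all 32851 windows of that length and in 10.9% of the 6874 windows of genes past the expression filter. The longer form TCACGTGA, which contains CACGTG, lay in 3 member windows (9.68%), against 0.974% of all windows and 2.23% of those past the filter. The median GC content was 56.3% in member windows, 52.7% in all windows and 61.7% in those past the filter.

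The stretches below show the longer form (Ctsd, Ctsa and Gla), the window with the most copies (Lamp1, with 4) and the cysteine protease genes with the steepest T2 slopes (Ctsl and Lgmn). Each is written on the strand of its gene and ends before the start site, with the E-box letters in capitals. Positions are those of the first base of CACGTG. In Ctsd (chr7:142387890-142387955, minus strand) it lies 98 bases before the start, and a second, shorter match that is not shown lies at 245. In Ctsa (chr2:164833731-164833772, plus strand) it lies 12 bases before the start, and another copy of the longer form, not shown, begins 5 bases after it. Gla (chrX:134601164-134601255, minus strand) has copies beginning 227 and 194 bases before its start. The Lamp1 copies (chr8:13159070-13159160, plus strand) lie between 61 and 15 bases before the start. The Ctsl match (chr13:64370721-64370770, minus strand) begins 236 bases before the start and the Lgmn match (chr12:102439106-102439171, minus strand) 49 bases before it.
Ctsd: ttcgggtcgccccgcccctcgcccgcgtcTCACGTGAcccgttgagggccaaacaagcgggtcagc
Ctsa: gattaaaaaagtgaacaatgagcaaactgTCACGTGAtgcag
Gla: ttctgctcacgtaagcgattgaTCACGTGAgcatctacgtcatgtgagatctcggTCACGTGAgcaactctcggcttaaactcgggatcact
Lamp1: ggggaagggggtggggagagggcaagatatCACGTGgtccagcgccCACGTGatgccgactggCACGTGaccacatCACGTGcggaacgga
Ctsl: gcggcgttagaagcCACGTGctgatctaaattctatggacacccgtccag
Lgmn: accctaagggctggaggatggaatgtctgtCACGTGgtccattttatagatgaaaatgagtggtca

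The letters GAGGAA, the core bound by the myeloid and B cell factor PU.1, were searched on both strands, where the other strand reads TTCCTC. They lay in 14 of the 31 member windows (45.2%), against 28.3% of all windows and 27.6% of those past the filter. TATAAA, also searched on both strands, lay in 4 member windows (12.9%), against 13.6% of all windows and 6.92% of those past the filter. In the last 150 bases before the start, GAGGAA lay in 19.4% of member windows, 14.5% of all and 13.6% of those past the filter. The GAGGAA matches of Laptm5 (chr4:130913248-130913313, plus strand) and Man2b1 (chr8:85083205-85083268, plus strand) are shown because, of the matches before a start, they lie nearest to it, at 38 and 34 bases.
Laptm5: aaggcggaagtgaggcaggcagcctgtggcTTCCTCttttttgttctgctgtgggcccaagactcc
Man2b1: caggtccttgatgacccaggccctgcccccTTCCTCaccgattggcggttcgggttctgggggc
Members with and without CACGTG overlapped in their T2 slopes. The 7 tested genes with the letters had a median slope of -0.06 log2 per ms and a range from -0.18 to -0.03, and the 17 without had a median of -0.05 and a range from -0.15 to -0.0011. A match of letters is a description of the sequence and no evidence of binding.

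Most of the lysosomal genes gave clear signal in the sorted leukocytes. Of the 34, 30 had a mean log2 intensity of at least 6 over the 5 mice, the filter for the test (88.2%, against 33.1% of the 19938 genes). Their means ran from 6.08 for Ctse to 12.001 for Psap, but signals of different probe sets are not comparable, so no order of abundance is drawn from them. The 4 genes under the filter were Ctsf at 5.04 ± 0.19, Gla at 5.01 ± 0.19, Cd63 at 3.65 ± 0.51 and Ctsk at 3.30 ± 0.12 (SD, n = 5). Just inside it lay Ctse at 6.08 ± 0.14 and Glb1 at 6.32 ± 0.12 (SD, n = 5). Ctsk is the collagen-cutting cathepsin of osteoclasts, and its intensity was 9.5 on 4 arrays and 11.4 on that of mouse 3.

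The sort and the arrays were checked on markers. Ptprc, which encodes CD45, read between 1962 and 2357 in the 5 mice. Islet endocrine genes had array means between 3.78 and 3.93 (5 genes) and genes of fibroblasts, endothelium and ducts between 4.21 and 4.34 (8 genes), on the log2 scale, with none past the filter. Acinar genes had means between 6.29 and 7.12 over 7 genes, highest in mouse 1 and lowest in mouse 2, and a slope of -0.0032 ± 0.060 over the 5 past the filter. T cell markers were lowest in mouse 1 at 8.52 and highest in mouse 2 at 9.33, although these mice have nearly the same T2, and B cell markers were the reverse, at 9.38 and 8.54.

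The lysosomal genes read higher in the mice with lower T2. Log2 intensity was fitted on T2 over the 5 mice with limma, and a negative slope means higher expression at lower T2. All 30 members tested had a negative slope, against 67.9% of the 6603 genes tested. With the 4 under the filter included, 33 of 34 were negative, against 46.3% of all 19938 genes, the exception being Ctsk at 0.0024. When the arrays were quantile normalized again, 27 of the 30 stayed negative and the share over all genes tested went to 43.9%, with Ctsw, Neu1 and Smpd1 at slopes of 0.0042, 0.00996 and 0.0080. The median member slope was -0.05 log2 per ms, and the median of all genes tested -0.0074. No member passed at an adjusted p under 0.05, nor did any of the 6603 genes (0%), of which 349 had an unadjusted p under 0.05. The lowest adjusted p among members was 0.254, for Lgmn. The unadjusted p was under 0.05 for 14 of the 30, all negative, against 4.59% of all genes tested that were negative and 0.697% that were positive. Without mouse 2 these were 8 members and 4.39% of all genes on the negative side, and without mouse 1 they were 11 members and 8.48%. Ctse and Ctsl lay under 6 in mouse 1 and passed the filter through the other mice. A filter on the lowest mouse, chosen after seeing the data, left 28 members, all negative, against 68.1% of genes. In sorted bulk cells, more cells of a lysosome-rich type and more RNA per cell cannot be told apart.

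The order of the mice showed the same without the fit. In 20 of the 30 members both mice of low T2, mice 4 and 5, read above both mice of high T2, mice 1 and 2. This was so for 15.4% of all genes tested. The reverse, both below, was seen in 0 members and in 3.63% of all genes. In 12 members mouse 3, whose T2 lies in the middle, also fell between the pairs (3.59% of all genes). These were Ctsd, Ctsl, Lgmn, Grn, Hexa, Gaa, Glb1, Gusb, Man2b1, Npc1, Lamp2 and Laptm5. A gene with 1 value on 3 or more arrays cannot have mouse 3 between the pairs. Such a gene can separate the pairs only where mouse 3 equals both mice of a pair. These repeats were in 38.2% of the genes tested and in 6 of the 30 members, which holds down the shares over all genes more. The highest reading of a tested member was in mouse 5 for 13 genes, mouse 4 for 11, mouse 3 for 4 and mice 1 and 2 for 1 each, and the lowest was in mouse 1 for 15 and mouse 2 for 13. Mouse 5 was also the highest array for 34.3% of all genes tested, mouse 4 for 18.0%, mouse 3 for 10.995%, mouse 2 for 13.5% and mouse 1 for 23.2%. The lowest array was mouse 1 for 24.1% of all genes tested, mouse 2 for 24.4%, mouse 3 for 33.3%, mouse 4 for 8.53% and mouse 5 for 9.75%. Where mice tied, the one of lowest number was counted.

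**Figure D1:**
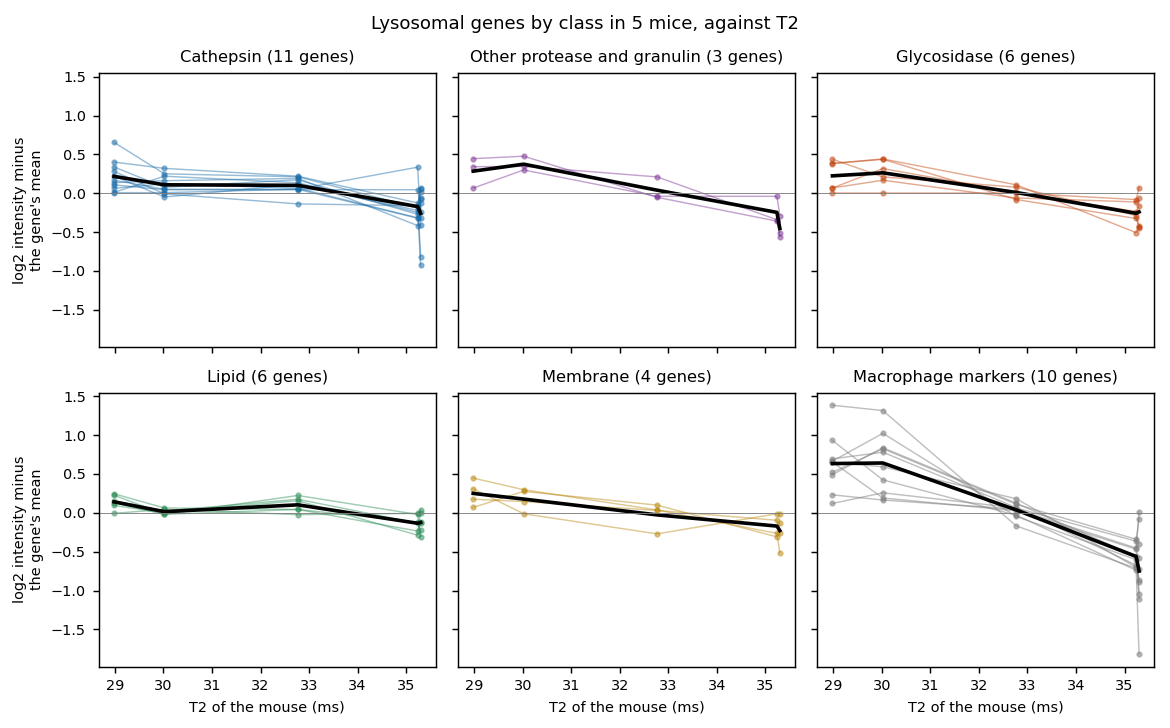
Log2 intensity of each tested lysosomal gene minus its own mean (y axis) against the T2 of the mouse in ms (x axis), in 5 class panels and a panel of macrophage markers; thin lines are genes, the thick line their mean, and points are the 5 mice. Class means sit above 0 at T2 of 28.98 and 30.02 ms and below 0 at 35.24 and 35.3 ms, with the steepest mean slope in the protease and granulin genes and the flattest in the lipid genes, and the macrophage panel spans the widest range.

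Mice 1 and 2 differ in T2 by 0.06 ms, so the gap between them is 1 example of how a gene varied at nearly the same T2. It is a single difference, and both mice also enter the fitted slope. The median gap was 1.11-fold over the 30 members and 1.05-fold over all genes tested. The fitted change over the whole T2 span of 6.32 ms was larger than this gap in 23 members, against 52.1% of all genes. The 23 include Smpd1 and Scarb2, which had the same value in mice 1 and 2, so that a change of any size exceeds their gap. Values that repeat across arrays also make the gap smaller over all genes. The gap exceeded the fitted change in Ctsc, Ctse, Ctsh, Ctsw, Neu1, Npc2 and Psap. A fitted fold of at least 1.5 between the lowest and the highest T2 was reached by 8 members, Ctsl, Lgmn, Hexa, Ctsd, Grn, Man2b1, Lamp2 and Gusb, against 2.45% of all genes tested. A fold under 1.2 was fitted for 10 members, the largest of these being that of Ctso at 1.197. Only 9.53% of all genes tested had a more negative slope than Ctso, so most genes tested also had a fold under 1.2.

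Among the cathepsins, the slopes ran from -0.18 for Ctsl to -0.0073 for Ctsw, with a median of -0.04 over the 11 tested. The 13 of the class are mostly cysteine proteases of the papain fold, beside the aspartic proteases Ctsd and Ctse and the serine carboxypeptidase Ctsa. At an unadjusted p under 0.05 there were 3 of 11, Ctsb, Ctsl and Ctsd, and in 6 of 11 mice 4 and 5 both lay above mice 1 and 2. Without mouse 1 the class median was -0.06.

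Ctsl, an endopeptidase that cuts many substrates, read 63.3, 106, 140, 143 and 190 in mice 1 to 5. The high T2 pair lay below the other mice, but mouse 2 already stood 1.67-fold above mouse 1. The slope was -0.18 ± 0.054 log2 per ms (SE, n = 5), a fitted ratio of 2.17 from the longest to the shortest T2, with a 95% interval of 1.11 to 4.21 and a limma adjusted p of 0.828. Without 1 mouse its slope lay between -0.22 and -0.11.

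Ctsd, the main aspartic protease of lysosomes, read 571, 922, 1171, 1256 and 1328 in mice 1 to 5. Mouse 1 stood well under the other mice, and the step between mice 1 and 2 was 1.62-fold. Its fold was 1.85, with a 95% interval of 1.00 to 3.42 and a limma adjusted p of 0.828. Without 1 mouse the slope of -0.14 lay between -0.18 and -0.08, the smaller size being that without mouse 1.

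Ctsb, a cysteine protease that both cuts within proteins and trims their ends, read 621 and 642 in mice 1 and 2, 874 in mouse 3, 818 in mouse 4 and 980 in mouse 5. Here the high T2 pair agreed closely, at 1.03-fold, and lay below the other 3 mice. The slope was -0.09 ± 0.023 and the fold 1.47, with a 95% interval of 1.11 to 1.94 and a limma adjusted p of 0.668, the largest moderated t of the class.

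Ctsz, a carboxypeptidase of myeloid cells, read 662, 523, 796, 780 and 767 in mice 1 to 5, with a fold of 1.33 (95% interval 0.910 to 1.93). Ctsa, which also shields beta-galactosidase and the sialidase Neu1 in a complex, read 617, 565, 736, 781 and 676, with a fold of 1.22 (95% interval 0.917 to 1.63). In both, mice 1 and 2 were the lowest, and mouse 3 was above mouse 5.

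Ctss, the cathepsin that degrades the invariant chain in B cells, dendritic cells and macrophages, read 860, 772, 975, 871 and 1050 in mice 1 to 5. The low T2 pair lay above the high T2 pair by a small margin, 871 in mouse 4 against 860 in mouse 1. The slope was -0.04 ± 0.021 and the fold 1.201, with a 95% interval of 0.923 to 1.56 and a limma adjusted p of 0.828. Ctsc, which activates granzymes and other serine proteases, had a fold of 1.204, Ctsh, an aminopeptidase, 1.17 and Ctso 1.197, with intervals that include 1. Ctsc and Ctsh each had the same value on 3 arrays and were lowest in mouse 2.

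Ctse, an aspartic protease of endosomes, read 57.2 in mouse 1, 70.1 in each of mice 2, 3 and 4, and 73.2 in mouse 5. The high T2 pair thus overlapped the others, and the fold was 1.14 (95% interval 0.903 to 1.45). Ctsf, under the filter, had the same shape, with 26.1 in mouse 1 and 34.8 to 35.3 in the others.

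Ctsw is a cathepsin of cytotoxic T cells and NK cells, and its order of mice was its own within the class. It read 95.5, 159.6, 131, 127 and 127 in mice 1 to 5. The lowest and the highest reading thus both came from the high T2 pair. The slope was -0.0073 ± 0.046 (limma adjusted p = 1.00), and it turned positive without mouse 1, at 0.05. Cytotoxic and NK cell markers were lowest and highest in the same mice, with means over 6 genes of 6.71 in mouse 1 and 7.50 in mouse 2, and the other mice between 7.10 and 7.30. Their members Ccl5 and Nkg7 read 294 and 129 in mouse 1 and 629 and 329 in mouse 2. Gzma went another way, lowest in mouse 4 at 62.9 and highest in mouse 5 at 151, and Eomes was highest in mouse 4. T cell markers as a list were also lowest in mouse 1, at 8.52, and highest in mouse 2, at 9.33. Whether any of these cells account for Ctsw was not tested.

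The other protease and granulin genes had steep slopes, with 2 of the 3 at an unadjusted p under 0.05 and all 3 with mice 4 and 5 above mice 1 and 2. Lgmn, the asparaginyl endopeptidase legumain that also matures several cathepsins, read 267, 297, 368, 530.5 and 519 in mice 1 to 5. The pairs were far apart, and mouse 3 lay between them. The slope was -0.15 ± 0.015 (SE, n = 5), a fold of 1.95, with a 95% interval of 1.62 to 2.35 and a limma adjusted p of 0.254, the smallest p of the members and the 15th smallest of all genes tested. Leaving out each mouse moved it only between -0.17 and -0.14.

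Grn, the precursor of the granulins, which is needed for normal lysosomal function, read 783, 911, 1335, 1467 and 1462 in mice 1 to 5. Mice 3, 4 and 5 were close together and above both of the high T2 pair. The fold was 1.79, with a 95% interval of 1.24 to 2.57 and a limma adjusted p of 0.561. Tpp1, a tripeptidyl peptidase, read 89.7, 107, 107, 135 and 115 in mice 1 to 5, with a fold of 1.28 (95% interval 0.951 to 1.72).

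Glycosidases had 5 of 6 tested members at an unadjusted p under 0.05, and mice 4 and 5 lay above mice 1 and 2 in the same number, with a median slope of -0.09. Man2b1, the acid alpha-mannosidase, read 708, 754, 893, 1279 and 1231 in mice 1 to 5. The low T2 pair stood apart from the other 3 mice. The slope was -0.13 ± 0.014 and the fold 1.79, with a 95% interval of 1.504 to 2.13 and a limma adjusted p of 0.264.

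Hexa, the alpha subunit of beta-hexosaminidase, read 446, 423, 648, 816 and 784 in mice 1 to 5. The mice fell into the same order of pairs, with mouse 3 between. Its fold was 1.91, with a 95% interval of 1.47 to 2.47 and a limma adjusted p of 0.335. Gusb, beta-glucuronidase, read 95.3, 106, 137, 150 and 175 in mice 1 to 5, so each step to lower T2 was a step up. The fold was 1.69, with a 95% interval of 1.38 to 2.06 and a limma adjusted p of 0.333.

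Gaa, the acid alpha-glucosidase that degrades glycogen, had a fold of 1.32 (95% interval 1.02 to 1.70), and Glb1, the lysosomal beta-galactosidase, 1.16 (95% interval 1.02 to 1.33). Gla, alpha-galactosidase A, lay under the filter, with readings of 29.3 to 31.7 in mice 1 to 4 and 40.5 in mouse 5. Neu1, the sialidase that forms a complex with the products of Ctsa and Glb1, was flat. It read 128 in mouse 1, 115 in mouse 2 and 122 in each of the other 3, with a slope of -0.0011 ± 0.010 and a 95% interval of its fold from 0.887 to 1.14. The class median depended on the members counted, at -0.06 with Gla included and -0.13 when only genes above a mean of 7 were kept.

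**Figure D2:**
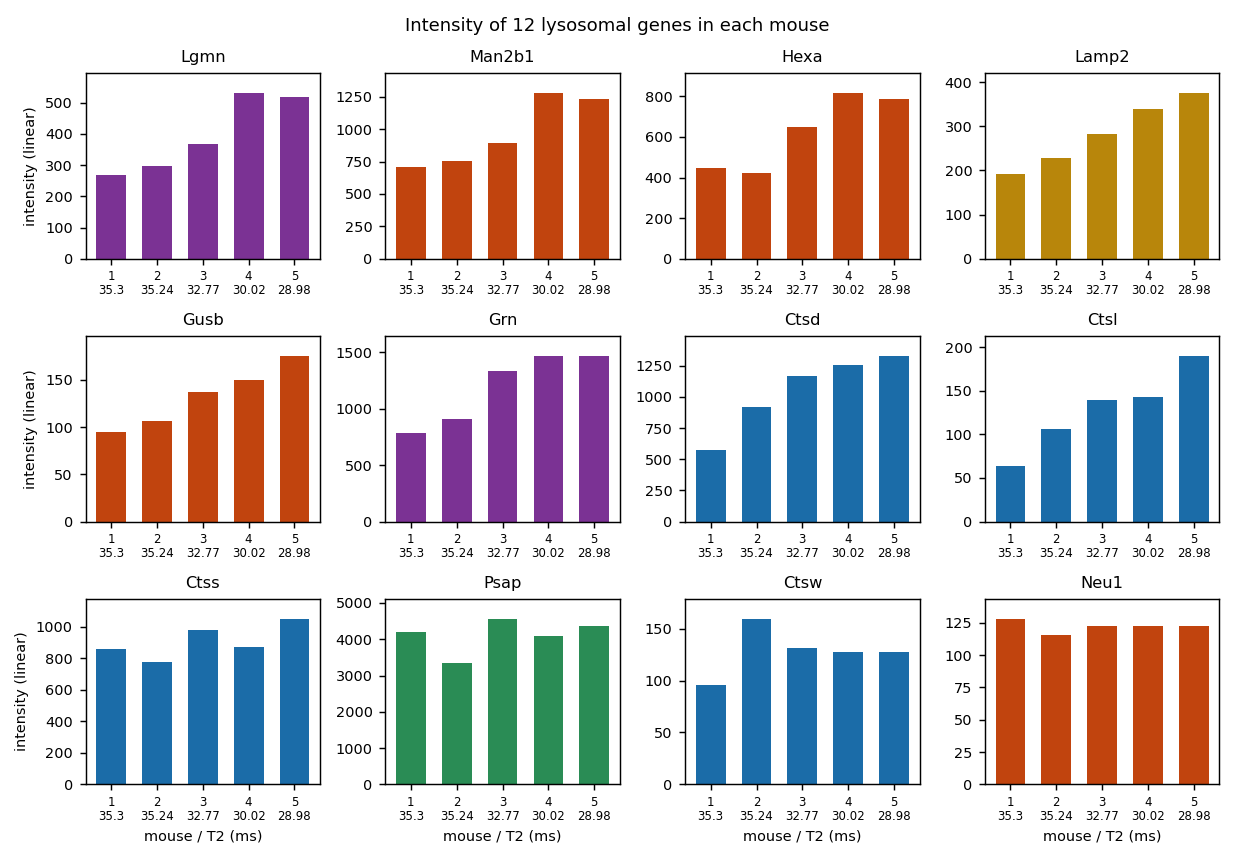
Linear intensity (y axis, from 0 in each panel) of 12 lysosomal genes in mice 1 to 5 (x axis, with the T2 of each mouse in ms), 1 bar per array and coloured by class. Lgmn, Man2b1, Hexa, Lamp2, Gusb, Grn, Ctsd and Ctsl read higher in mice 4 and 5 than in mice 1 and 2, Ctss by a small margin, while Psap, Ctsw and Neu1 do not separate the pairs.

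The lipid genes had smaller slopes, with a median of -0.04 and none steeper than -0.06, and 2 of 6 at an unadjusted p under 0.05. Npc1, the membrane protein that exports cholesterol from lysosomes, read 166, 153, 185, 188 and 213 in mice 1 to 5. The slope was -0.06 ± 0.013 and the fold 1.29, with a 95% interval of 1.10 to 1.51 and a limma adjusted p of 0.551. Npc2, its soluble partner, read 350 in mouse 1, 427 in mice 2 and 4, 506 in mouse 3 and 475 in mouse 5, with a fold of 1.18 (95% interval 0.814 to 1.71). The pairs thus separated for Npc1 and overlapped for Npc2.

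Asah1, acid ceramidase, read 164, 165, 185, 177 and 210 in mice 1 to 5, with a fold of 1.204, with a 95% interval of 1.01 to 1.43 and a limma adjusted p of 0.828. Lipa, the acid lipase that frees cholesterol from its esters, read 210, 222, 276, 248 and 272, with a fold of 1.22 (95% interval 0.952 to 1.56). Both had the high T2 pair lowest, and Lipa was highest in mouse 3.

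Psap, the precursor of the saposins that help lipid hydrolases, read 4207, 3356, 4567, 4098 and 4377 in mice 1 to 5. Mouse 1 lay above mouse 4, and without mouse 2 the slope of -0.03 became 0.0010. Smpd1, acid sphingomyelinase, read between 135 and 142 in the 5 mice, a fold of 1.02 (95% interval 0.952 to 1.09), with 1 value shared by 3 arrays. Psap, Npc2, Lipa and Ctsz were the 4 tested members highest in mouse 3. Neutrophil markers were also highest in mouse 3, with means over 3 of 10 genes of 8.85 there and 6.18 to 7.95 in the others. Ngp, 1 of these 3, passed the filter through its log2 of 8.38 in mouse 3. Over all 10 the means were 6.23 in mouse 3 and 4.82 to 5.65 in the others. S100a9 read 645 in mouse 3 and 150 to 352 in the others. Dendritic cell markers (3 of 7 past the filter) were highest in mouse 3 too, at 6.74 against 6.52 to 6.53. Itgax, 1 of these 3, was nearly flat, at 106 in mouse 3 and 103 in the others. Over all 7 the means were 5.66 in mouse 3 and 5.40 to 5.54 in the others. Of those under the filter, Zbtb46 and Xcr1 were highest in mouse 2, and Clec9a and Batf3 in mouse 3. The part of neutrophils or dendritic cells in Psap, Npc2, Lipa and Ctsz was not tested.

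Among the membrane proteins, Lamp2 and Lamp1 differed in size of slope. Lamp2, which also takes part in chaperone-mediated autophagy, read 193, 229, 282, 338 and 375 in mice 1 to 5. Each step to lower T2 was a step up, with a slope of -0.13 ± 0.017 and a fold of 1.78, with a 95% interval of 1.44 to 2.20 and a limma adjusted p of 0.333. Lamp1, its close relative, read 668, 591, 784, 887 and 768, with a fold of 1.32, with a 95% interval of 0.983 to 1.76 and a limma adjusted p of 0.828. The intervals overlap, and the difference between them was not tested.

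Laptm5, a lysosomal protein of haematopoietic cells that lowers antigen receptors at the surface of T and B cells, read 3104, 3464, 3781, 4096 and 4180.5 in mice 1 to 5. All 5 values follow T2 in order, over a range of 1.35-fold. The slope was -0.06 ± 0.011 and the fold 1.29, with a 95% interval of 1.117 to 1.48 and a limma adjusted p of 0.503. Scarb2, a membrane protein that takes part in enzyme transport to lysosomes, read 194 in mice 1, 2 and 4, 162 in mouse 3 and 242 in mouse 5, and its slope of -0.04 turned to 0.0077 without mouse 5. Cd63, a tetraspanin of late endosomes, read near the lower end of the scale, at 9.0 to 12.2 in mice 1 to 4 and 22.8 in mouse 5, so its fold is not read.

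**Figure D3:**
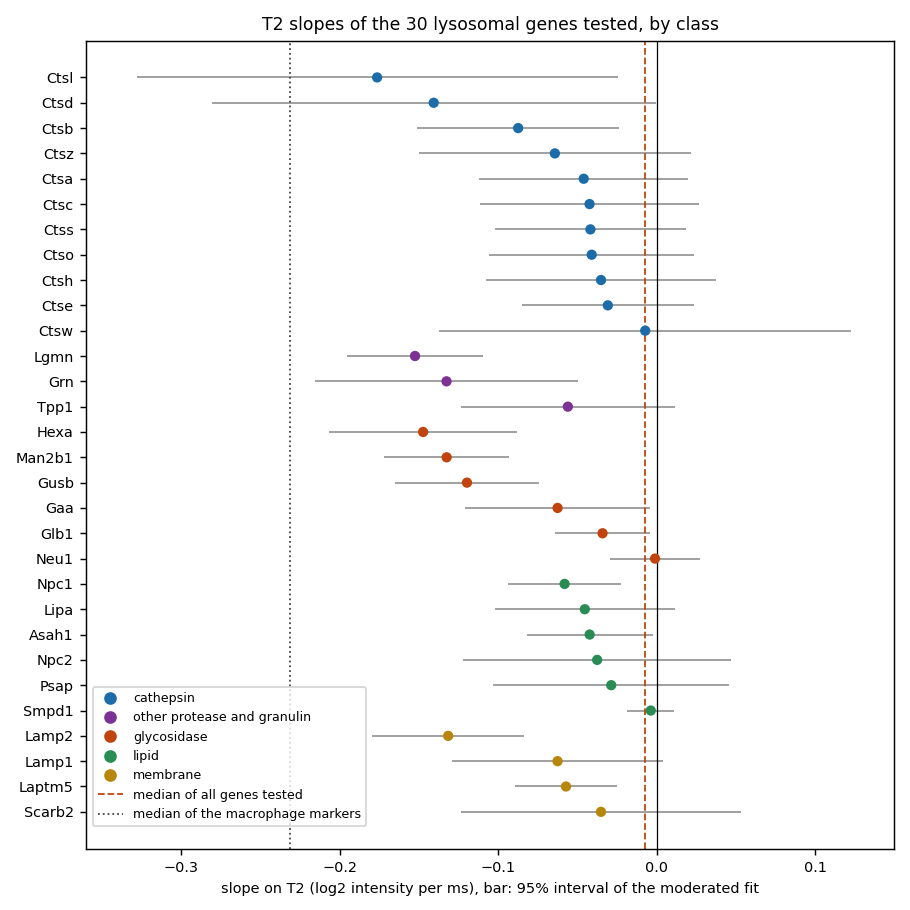
Slope on T2 of the 30 tested lysosomal genes in log2 intensity per ms (x axis), ordered by class and slope (y axis), with bars for the 95% interval of the moderated fit; the dashed line is the median of all 6603 genes tested (-0.0074) and the dotted line that of 10 macrophage markers (-0.23). All 30 points lie left of 0, with Ctsw, Neu1 and Smpd1 nearest to it, which turn positive when the arrays are quantile normalized again, and the intervals of Lgmn, Hexa, Man2b1, Gusb, Lamp2, Grn, Ctsb, Ctsl, Npc1 and Laptm5 lie left of the dashed line throughout.

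Markers of macrophages ran in the same direction as the lysosomal genes, over a wider range. All 10 of 14 macrophage markers past the filter had negative slopes, with a median of -0.23 and array means of 7.42, 7.60, 8.20, 8.81 and 8.80 in mice 1 to 5. Over all 14 measured, 13 had negative slopes, Fcgr1 had 0.02, and the means ran from 6.64 in mouse 1 to 7.73 in mouse 5; Vsig4 passed the filter only through mice 3, 4 and 5. The list holds Cd68, and without it the means were 7.26, 7.50, 8.12, 8.77 and 8.77. Apoe, a lipid carrier made by macrophages, read 595, 534, 872, 1196 and 1699 in mice 1 to 5. Csf1r, the receptor of the macrophage growth factor CSF1, read 625, 453, 642, 695 and 729 in mice 1 to 5. The means of the 30 lysosomal genes in the same order were 8.20, 8.25, 8.50, 8.60 and 8.65. No lysosomal member reached the macrophage median slope. Mast cell markers (4 of 5 past the filter, all with negative slopes) ranged from a mean of 5.62 in mouse 1 to 6.99 in mouse 5. All 4 lay under 6 in mouse 1 and passed the filter through the other mice, and Fcer1a, which did not pass, had a slope of 0.01. Over all 5 the means ran from 5.14 in mouse 1 to 6.27 in mouse 5. Tpsb2 read 60.4 in mouse 1 and 152 in mouse 5, and Cpa3 44.1 and 154. Genes of dissociation stress (6 of 6 negative) ranged from 7.73 in mouse 2 to 8.78 in mouse 5, Dusp1 reading 800.1 and 1536 and Jun 466 and 792 in those mice. B cell markers (7 of 7 negative) and plasmacytoid dendritic cell markers (4 of 4 negative) had smaller median slopes, -0.02 and -0.03, with 0 at an unadjusted p under 0.05. Of all genes tested, 67.9% were negative. The part of these cells, and of handling stress, in the lysosomal slopes was not tested.

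The rest of the lysosomal pathway was read from lists that hold no member. Of the other lysosomal hydrolases 17 of 21 with a probe set were tested, 16 had a negative slope and 3 an unadjusted p under 0.05, with a median slope of -0.04, where 67.9% of all genes tested were negative and 4.59% were negative with such a p. Scpep1, a serine carboxypeptidase related to Ctsa, read 265, 244, 306, 347 and 370 in mice 1 to 5 (slope -0.09 ± 0.0092; limma adjusted p = 0.264), and Pla2g15, a lysosomal phospholipase, had a slope of -0.06 ± 0.016. Of the V-ATPase subunits, which acidify the lumen, 13 of 15 were negative with a median of -0.02 and 1 unadjusted p under 0.05, that of Atp6v1a at -0.04 ± 0.015; Atp6v0b had -0.07 ± 0.026. The other lysosomal membrane proteins had 9 of 12 negative (75.0%, near the 67.9% of all genes tested), 1 unadjusted p under 0.05 and a median of -0.02. Of the rest, Tmem192 had a positive slope of 0.02, and Ostm1 and Clcn7 read the same on all 5 arrays, a slope of 0. Laptm4a, a relative of Laptm5, had a slope of -0.07 ± 0.018 and Cd68, a LAMP family protein of macrophages, -0.07 ± 0.024. Members of these lists had smaller median slopes than the glycosidases and the protease and granulin genes, and no test was made between lists.

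Cst3, cystatin C, was the 1 of 6 cathepsin inhibitors past the filter. It read 2279, 2199, 2951, 3086 and 3311 in mice 1 to 5, with a slope of -0.09 ± 0.015 (limma adjusted p = 0.385). The high T2 pair was lowest for this secreted inhibitor. Of the cysteine proteases tested, it was lowest for Ctsl, Ctsb, Ctss, Ctsz and Lgmn, and not for Ctsc, Ctsh, Ctso and Ctsw. Mice 4 and 5 both lay above mice 1 and 2 in 15.4% of all genes tested. A relation between Cst3 and these proteases was not tested.

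Genes that tag and sort hydrolases and genes that regulate the lysosome had small slopes, in either direction for the sorting genes and mostly negative for the regulators. Of 11 sorting genes 7 were negative (63.6%, against 67.9% of all genes tested), with a median of -0.0026 and 0 at an unadjusted p under 0.05. Sort1, a sorting receptor, had -0.04 ± 0.028 and Nagpa, which completes the mannose 6-phosphate tag, -0.02 ± 0.010. Of 7 regulators 5 were negative (71.4%), with a median of -0.02 against -0.0074 for all genes tested. Tfeb alone was positive, and Mtor read the same on all 5 arrays, a slope of 0. Rraga, a GTPase that recruits mTORC1 to the lysosome, had a slope of -0.02 ± 0.0051 and Flcn, folliculin, -0.03 ± 0.011. These were the 2 at an unadjusted p under 0.05, where 4.59% of all genes tested were negative with such a p. Tfeb had a positive slope, 0.03 ± 0.014 (limma adjusted p = 0.828), with 121 in mouse 1 and 97.5 in mouse 5, and Tfe3 had -0.02 ± 0.043. None of these genes passed the adjusted threshold.

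**Figure D4:**
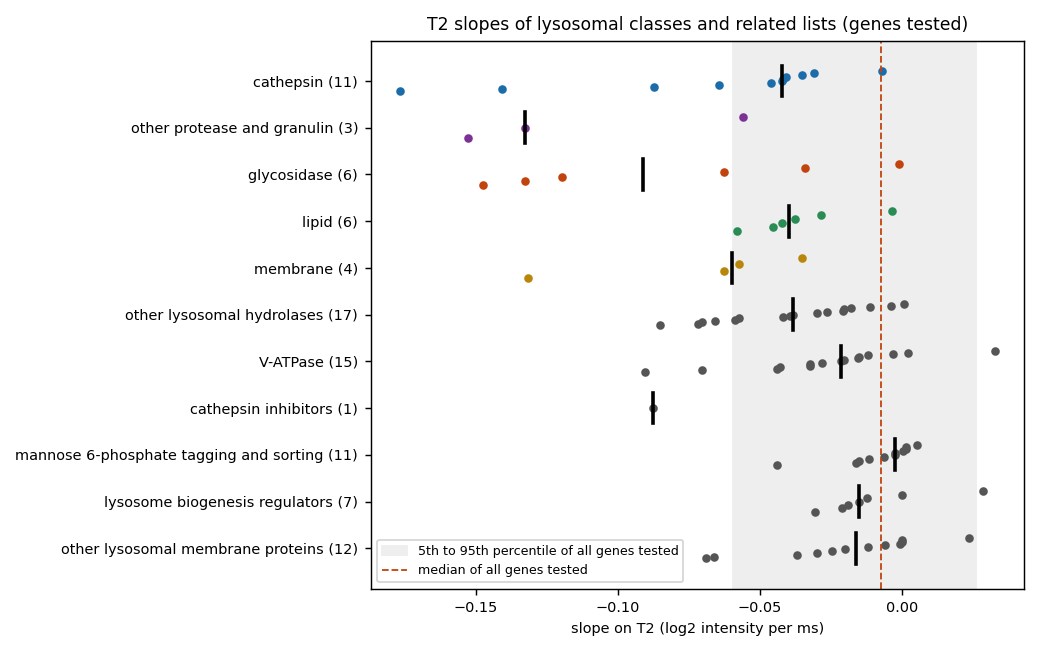
Slopes on T2 in log2 intensity per ms (x axis) of the tested genes of the 5 lysosomal classes and 6 related lists (y axis, with the number of genes), 1 point per gene, a black bar at each median, a grey band from the 5th to the 95th percentile of all 6603 genes tested and a dashed line at their median. The medians of the protease and granulin genes (-0.13) and glycosidases (-0.09) lie outside the band, as does the 1 cathepsin inhibitor, that of the membrane genes (-0.06) lies at its edge, and those of sorting genes and regulators lie inside it.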

How the data were processed

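Per the submitters' processing notes, the authors made the deposited intensities with RMA in Affymetrix Power Tools, a method with background correction, quantile normalization and probe summary. The build and tool versions were not stated in the labels. The 35556 probe sets were read as linear intensity (2.87 to 19435) and transformed to log2. The deposited values often repeat across arrays: 38.2% of the genes tested, and 6 of the 30 members, had 1 value on 3 or more arrays. The labels do not say why, and leaving such genes out changes the calls. GEO's platform annotation gave 21789 probe sets 1 symbol; 1621 with several symbols and 12146 without a name were left out. The probe set of highest mean stood for a gene. The 6603 genes with a mean log2 of at least 6 were fitted on T2 with limma 3.58.1 in R 4.3.3 (lmFit, eBayes, two-sided, 3 residual degrees of freedom), with Benjamini-Hochberg adjustment over all of them and a threshold of 0.05. Slopes of genes carry the moderated SE, and the slope of the acinar list carries the ordinary SE of a linear fit of its mean. Folds are fitted ratios over 6.32 ms with 95% intervals. The fit was tested on simulated data. The number of arrays limits the precision, and the p-values rest on the spread of 5 mice.

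The members, the lists and the classes were chosen with earlier results of these data known. All 34 members are named; values in every mouse were given for the 5 cathepsins and the 3 genes of each other class with the largest moderated t, for Ctse, Ctss, Ctsw, Ctsd, Laptm5 and Lamp1, and for further members where they helped. In each list of other lysosomal genes the 2 of largest moderated t were named, with Tfeb, Tfe3, Cst3 and Cd68, and for marker lists the 2 of highest mean. Protein sequences were not analysed here. Alternatives were other filters, quantile normalization again, arrays centred on their medians, the mean of all probe sets, the rank of T2, eBayes with trend or robust, array weights, genes with equal values left out, each mouse left out and, for promoters, the last 150 bases before the start; a filter on the lowest mouse was added after the data were seen.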

Additional observations from a re-analysis of the deposited data

Results flagged for a closer look

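In 34 members and 5 class means, 1 mouse stood apart from the other 4 in 7 genes, measured as its distance from the next value divided by the spread from lowest to highest mouse; chance flags about 1 in 20 such groups, and 6 of the 7 genes had 1 value on 3 or more arrays, which shortens the range of the others. Mouse 2 was low in Ctsc (gap share 0.760, log2 9.31 against 9.68 to 9.79) and in Ctsh (0.870, 8.17 against 8.55 to 8.61). Mouse 1 was low in Ctse (0.825, 5.84 against 6.13 to 6.19) and in Ctsf (0.947, 4.71 against 5.12 to 5.14). Mouse 3 was high in Ctsk (1.00, 3.51 against 3.24), mouse 5 in Gla (0.755, 5.34 against 4.87 to 4.99) and mouse 4 in Smpd1 (0.749, 7.14 against 7.08 to 7.09).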

How the results depend on the processing

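No paired analysis was possible because the mice form 1 group. Of the 6603 genes, 0 passed the adjusted threshold. With a filter of 7, 3 of 3563 genes passed. With arrays quantile normalized again 4 of 6604 passed, and with array weights 4 of 6603. With genes of equal values left out 35 of 4079 genes passed. In that setting 2 of 24 members passed, Lgmn and Man2b1 (lowest member limma adjusted p 0.0367). In the other settings the lowest member limma adjusted p lay between 0.0970 and 0.698. The count of members at an unadjusted limma p under 0.05 was 14, and 8 to 11 without 1 mouse. Of all genes tested, 4.59% were negative with such a p, and 3.23% to 8.48% without 1 mouse. Leaving out 1 mouse gave 28 to 30 negative slopes among the 30 members, and 51.4% to 69.2% negative over all genes tested. The median slope of all members was -0.0398 after quantile normalization again. The glycosidase median was -0.0626 with no filter or a filter of 5, -0.133 with a filter of 7, -0.0800 after quantile normalization again, -0.104 on ranks of T2, -0.120 without genes of equal values, and -0.106 to -0.0816 without 1 mouse. The membrane median was -0.0501 after quantile normalization again, -0.0662 on ranks, -0.0713 with array weights, and -0.0800 to -0.0525 without 1 mouse. The protease and granulin median was -0.158 on ranks and -0.160 to -0.106 without 1 mouse, and the cathepsin median -0.0614 to -0.0346. Slopes that turned positive were those of Ctsw (0.0042 after quantile normalization again, 0.0217 with array weights, -0.0582 to 0.0498 without 1 mouse), Neu1 (0.00996 after quantile normalization again, 0.0034 on ranks, -0.0123 to 0.0101 without 1 mouse), Smpd1 (0.0080 after quantile normalization again, -0.0084 to 0.00019 without 1 mouse), Psap (-0.0465 to 0.0010 without 1 mouse) and Scarb2 (-0.0482 to 0.0077 without 1 mouse). In the last 150 bases before the start 6 member windows held GAGGAA (19.4%, against 14.5% of all windows and 13.6% of those past the filter) and 1 held TATAAA (3.23%, against 7.57% and 3.36%). Where no construction shows it, the cause was not tested. With 5 arrays, slopes of about the size of their standard error are not resolved, and Cd63, Ctsk, Ctsf and Gla lie at low signal.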
